A study of Mus musculus with 7 samples.

Results

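Expression of 40 genes that carry T cell signaling and effector identity was examined in subcutaneous tumors of mouse pancreatic ductal adenocarcinoma (PDA) cells with or without a CRISPR guide against *Krt19*. The genes were taken by name: each row of the deposited table whose symbol equals a member of the list was used, which found all 40 symbols in 42 rows among 38026 genes. *Il12rb1* is listed at 2 identifiers with identical values and was counted as 1 gene. A second *Cd28* row, ENSMUSG00000102412.7, did not exceed 8.0 in any library and was not tested. Of the 40 genes, 39 passed a filter on low values. *Trat1*, an adaptor of the T cell receptor complex, did not, with 5, 2, 2 and 2 reads in sgScramble tumors and 5, 5 and 6 reads in sgKrt19 tumors.

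The C57BL/6 hosts were bought at 6 weeks of age and were then kept for 2 weeks before an experiment began. All 7 tumors were formed in such mice by the cancer cell line 1242. This line came from a tumor of a KPC mouse, a model of pancreatic cancer driven by Pdx1-Cre. The cells carried a lentivirus with Cas9 and either a scrambled guide (sgScramble, replicates 1 to 4, labelled as control) or a guide against *Krt19* (sgKrt19, replicates 5, 6 and 8). Tumors grew for 2 weeks with no treatment. Both groups therefore share the KPC background, Cas9, the vector and an intact host, and the labels do not say which *Krt19* guide was used or whether the cells were a clone. The labels do not say whether each tumor grew in a separate mouse, so p-values measure only the spread between these samples.

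A T cell recognizes antigen through its receptor, whose signal leaves the membrane through the CD3 chains. The kinase Lck phosphorylates CD3 and recruits Zap70, which in turn phosphorylates the adaptors Lat and Lcp2 (SLP-76) and so links the receptor to calcium and protein kinase C signals. Costimulatory receptors, common gamma chain cytokines and interleukin-12 or interleukin-18 shape whether the cell makes interferon-gamma, Fas ligand and other effector products. Natural killer (NK) cells and other lymphocytes share many of these genes, among them *Il2rb*, *Tbx21*, *Eomes*, *Xcl1* and *Ifng*.

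The 4 sgScramble and 3 sgKrt19 libraries held 40781199 to 44972100 reads. A normalized read count is the number of reads at a gene after division by a size factor, and 3 reads, taken as the floor of detection, correspond to 2.74 to 3.47. The edited gene was lower in every sgKrt19 tumor: *Krt19* had normalized read counts of 25570, 21180, 27620 and 17840 in sgScramble tumors 1 to 4 and 1606, 1960 and 2470 in sgKrt19 tumors 5, 6 and 8 (log2 fold change −3.52, limma adjusted p = 1.74e-05, SE 0.18). Markers of other cells also moved with the groups. The summed normalized read count of 7 skeletal muscle markers was 59.3 to 1955 in sgScramble tumors, of which sgScramble 3 was the highest, and 14380 to 23220 in sgKrt19 tumors, and all 7 were called higher. Of 7 NK cell markers 5 were called higher (sums of 535 to 868 and 1336 to 1670), of 4 tested neutrophil markers 4 (361 to 534 and 1035 to 1146), of 10 general leukocyte markers 10 (12720 to 17440 and 22770 to 31130), of 4 gamma delta T cell markers 3 (24.7 to 51.0 and 128 to 180), and of 8 macrophage and monocyte markers 3 higher and 1 lower. Of 6 epithelial markers 3 were called higher (sums of 117300 to 158500 and 237900 to 247300), although their mean log2 levels overlapped between the groups. Of 5 dendritic cell markers 2 were called higher (297 to 359 and 435 to 463). Of 5 endothelial markers 2 were called higher (2738 to 4332 and 4275 to 4594), and of 3 tested skin markers 1 was called lower. limma called 0 of 5 fibroblast, 2 tested B cell, 5 mast cell or type 2 innate lymphoid cell and 3 tested platelet markers, of which 1 mast cell or lymphoid marker was higher and 1 platelet marker lower at an unadjusted p under 0.05. No marker was at 0 in every library, and the part of these cells in the results on the 40 genes was not tested. In RNA from whole tumors, fewer cells of a type and less RNA per cell cannot be told apart.

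Promoter sequence is shown for the gene with the highest fold change in each role that had a motif match and a window outside its own annotated span. No surface receptor met both conditions. The 250 bases before the start site were read from the RefSeq promoter table of GRCm38.p6, which held 30 of the 40 genes, and each run is given 5′ to 3′ on the strand of the gene. The capitals mark matches on either strand to letters bound by factor families that act in T cells: TGTGGT for RUNX, AGGTGT for T-box, AGGAAG for ETS, AGATAA for GATA and TTCNNNGAA for STAT factors. *Ifng* (chr10:118440796-118441045, plus strand) has a STAT match, *Il18rap* (chr1:40515112-40515361, plus strand) has 2 ETS matches, and *Tbx21* (chr11:97115332-97115581, minus strand) and *Zap70* (chr1:36761548-36761797, plus strand) have 1 ETS match each, and none of these matches overlap.
Ifng: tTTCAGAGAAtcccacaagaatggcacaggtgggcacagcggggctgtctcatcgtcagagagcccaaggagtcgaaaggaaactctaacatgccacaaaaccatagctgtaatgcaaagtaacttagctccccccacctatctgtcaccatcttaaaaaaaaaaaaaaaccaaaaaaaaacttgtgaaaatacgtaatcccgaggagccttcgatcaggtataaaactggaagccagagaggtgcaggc
Il18rap: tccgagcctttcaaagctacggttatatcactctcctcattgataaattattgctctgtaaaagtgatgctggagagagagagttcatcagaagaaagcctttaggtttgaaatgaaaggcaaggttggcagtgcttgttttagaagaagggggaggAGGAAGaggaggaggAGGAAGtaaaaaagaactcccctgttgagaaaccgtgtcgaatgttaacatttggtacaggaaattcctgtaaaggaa
Tbx21: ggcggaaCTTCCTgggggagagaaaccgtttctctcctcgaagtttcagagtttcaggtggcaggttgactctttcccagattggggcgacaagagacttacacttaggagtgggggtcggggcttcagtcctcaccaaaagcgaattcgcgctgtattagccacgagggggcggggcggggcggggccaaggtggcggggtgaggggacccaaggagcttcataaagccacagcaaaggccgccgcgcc
Zap70: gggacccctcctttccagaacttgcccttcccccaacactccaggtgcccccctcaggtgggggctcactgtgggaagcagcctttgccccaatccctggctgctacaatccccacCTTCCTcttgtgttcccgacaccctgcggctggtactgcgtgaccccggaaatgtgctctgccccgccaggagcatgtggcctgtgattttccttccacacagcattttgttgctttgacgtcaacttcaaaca
The ETS letters were in 15 of the 30 promoters (50%), against 29.2% of 27025 promoters of the same length. RUNX letters were in 8 (26.7% against 14.2%), STAT letters in 4 (13.3% against 7.18%), T-box letters in 2 (6.67% against 12.0%) and GATA letters in 2 (6.67% against 10.3%). A match describes letters in this window and is no measure of binding.

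T cell identity itself was checked on the CD3 genes and co-receptors. Normalized read counts of *Cd3e* were 76.2, 98.8, 36.5 and 49.2 in sgScramble tumors and 409, 515 and 262 in sgKrt19 tumors, a 6.18-fold difference. *Cd3d* and *Cd3g* were 6.98-fold and 6.67-fold higher. *Cd8a* differed by 3.11 on the log2 scale (limma adjusted p = 0.000557, SE 0.42), whereas *Cd4* had 0.56 (SE 0.26, adjusted p = 0.116) and was not called. Each sgKrt19 tumor exceeded each sgScramble tumor in *Cd3d*, *Cd3e* and *Cd3g*, and reads of these genes were found in every tumor of both groups.

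Of the 39 tested genes, 35 were called higher in sgKrt19 tumors, 0 were called lower and 4 were not called. limma, edgeR and DESeq2 each called 0 lower, and 0 were lower at an unadjusted p under 0.05. Across all 21322 tested genes limma called 34.0%, made up of 17.9% higher and 16.0% lower. The median log2 fold change of the 39 genes was 1.67, against 0.0072 for all tested genes. For the same 35 genes every sgKrt19 library lay above every sgScramble library, which held for 21.7% of all tested genes, while the reverse order held for 19.3% of all genes and 0 of the 39. On the sgScramble libraries alone 38 of the 39 would have passed the filter, and 34 of these were called higher. *Themis* is the gene that passed through the sgKrt19 libraries. edgeR on the recovered reads also called 35 of the 39 higher, beside 17.3% of all tested genes. The count fell to 31 without sgKrt19 replicate 5 or without sgKrt19 replicate 6.

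**Figure D1:**
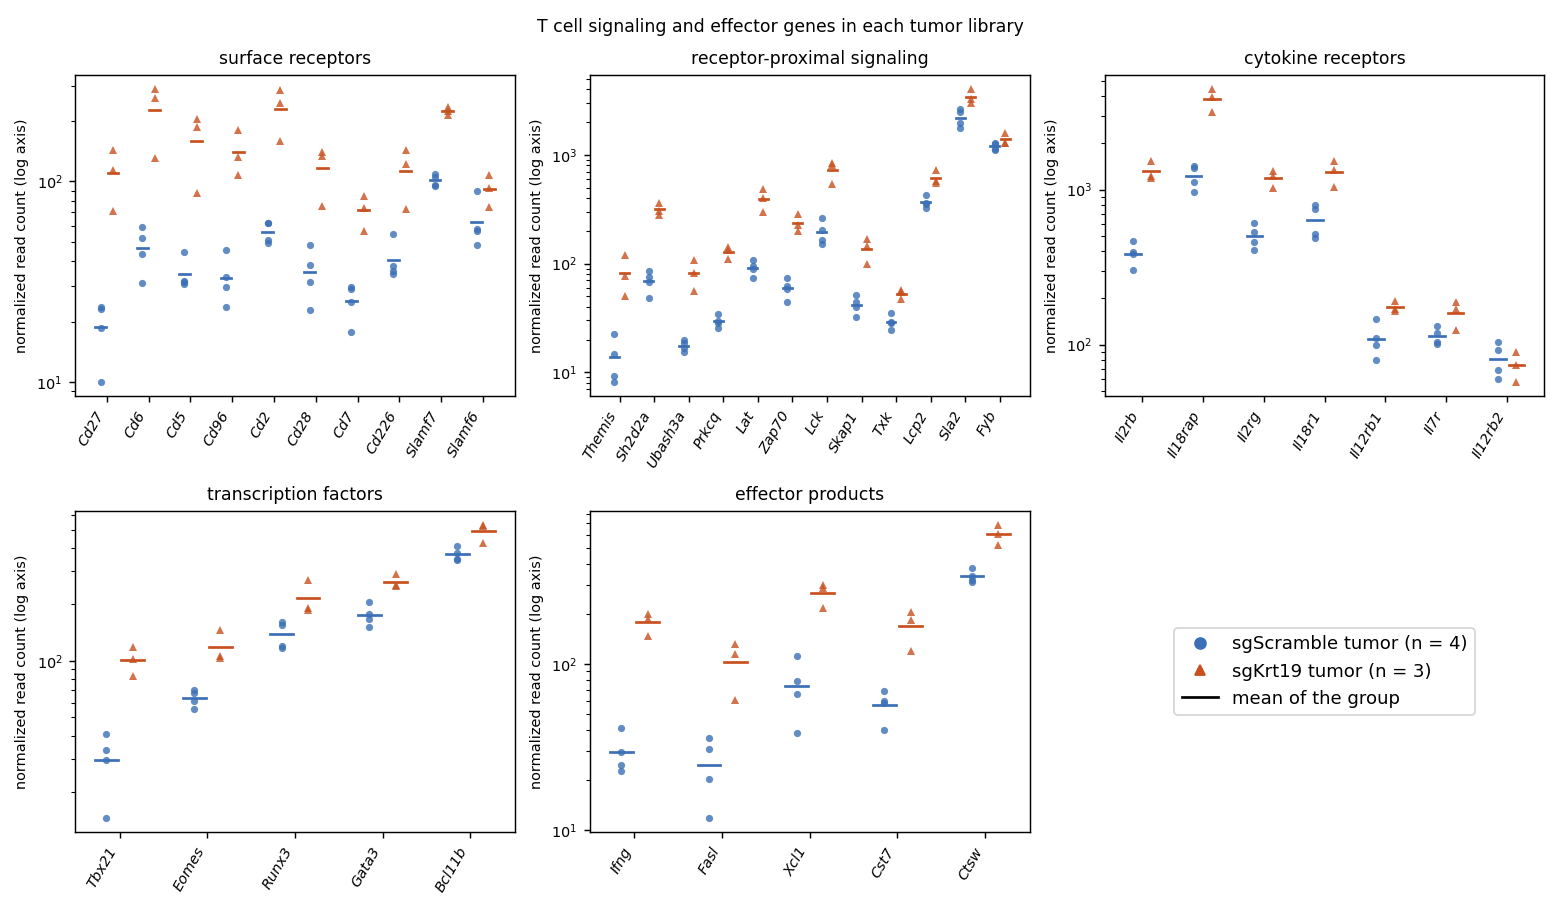
Normalized read count (log axis) of the 39 tested genes in each of 4 sgScramble (circles) and 3 sgKrt19 (triangles) tumors, grouped by role and ordered by fold change, with a bar at the mean of each group. For 35 genes all triangles lie above all circles, and the circles and triangles overlap for *Slamf6*, *Fyb*, *Il7r* and *Il12rb2*.

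The mean of log2(normalized read count + 1) over the 39 genes was 6.66, 6.50, 6.26 and 6.58 in sgScramble tumors 1 to 4 (6.50 ± 0.17, SD, n = 4) and 8.01, 8.12 and 7.68 in sgKrt19 tumors 5, 6 and 8 (7.94 ± 0.23, SD, n = 3). The groups did not overlap, and the difference of the means was 1.44. Of the 39 genes, 24 had their lowest control value in sgScramble 3, and 28 had their lowest sgKrt19 value in sgKrt19 8. The highest sgKrt19 value was in sgKrt19 6 for 23 genes. With sgKrt19 8 left out the difference of the means was 1.57, and with sgKrt19 6 left out it was 1.35.

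**Figure D2:**
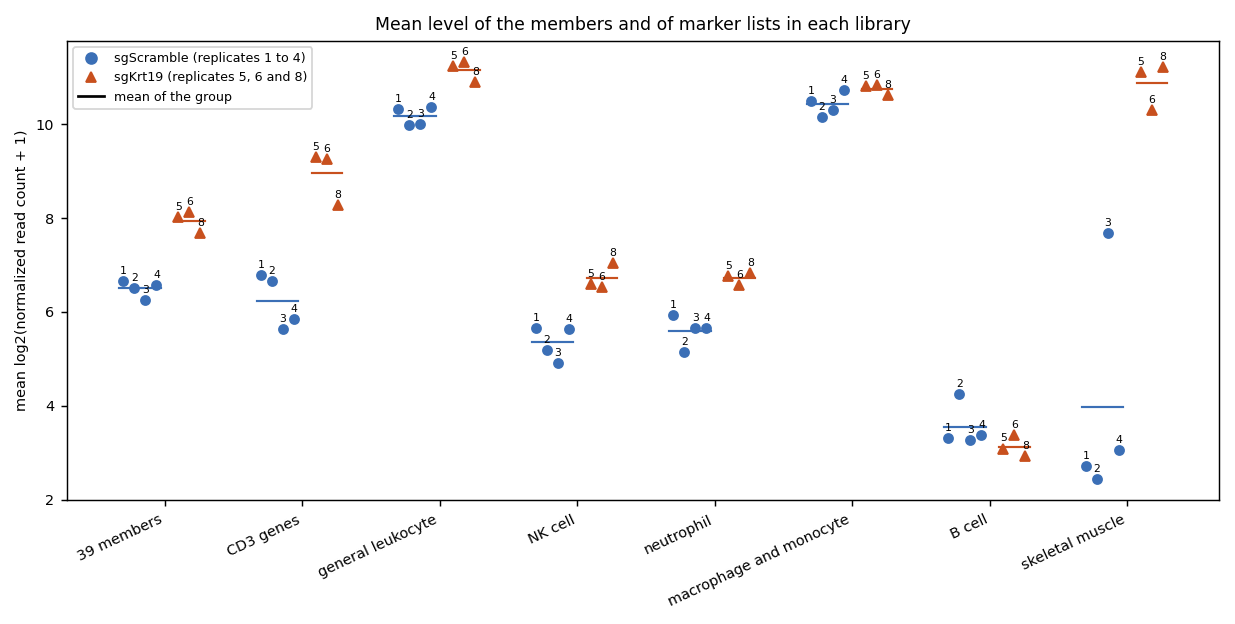
Mean of log2(normalized read count + 1) over the 39 genes and over the genes of marker lists, for each tumor (numbers are replicates), with a line at each group mean. The 39 genes run from 6.26 to 6.66 in sgScramble and from 7.68 to 8.12 in sgKrt19 tumors, and the CD3, general leukocyte, NK cell, neutrophil and skeletal muscle lists also separate the groups.

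The surface receptors comprised 10 genes, of which 9 rose (median log2 fold change 1.84). *Cd27*, a costimulatory receptor of the tumor necrosis factor receptor family, rose most, from 18.6, 23.7, 10.1 and 23.2 in sgScramble tumors to 114, 143 and 71.4 in sgKrt19 tumors (log2 fold change 2.49, limma adjusted p = 0.000684, SE 0.35). Its lowest sgKrt19 value was well above its highest control value. *Cd6*, a scavenger receptor family member that binds Alcam, was at 59.5, 43.5, 31.1 and 51.9 in sgScramble tumors and at 261, 288 and 131 in sgKrt19 tumors (log2 fold change 2.22, SE 0.31, adjusted p = 0.000679). The related inhibitory receptor *Cd5* rose by 2.09 on the log2 scale, and so did *Cd96* (2.05), a receptor for Pvr, and *Cd2* (1.98), the receptor for Cd48. *Cd28*, the receptor for Cd80 and Cd86, rose by 1.70, *Cd7* by 1.47 and *Cd226*, an activating receptor that competes with Cd96 for Pvr, by 1.41.

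*Slamf7* and *Slamf6*, self-binding receptors of the SLAM family, had the smallest differences of the surface group. *Slamf7* was at 109, 95.8, 94.98 and 105 in sgScramble tumors and at 215, 235 and 225 in sgKrt19 tumors, a 2.22-fold difference (adjusted p = 0.000518) with little spread in either group. *Slamf6* was at 57.6, 48.4, 56.6 and 89.0 in sgScramble tumors and at 92.5, 107 and 74.6 in sgKrt19 tumors. sgScramble 4 lay above sgKrt19 8, the groups overlapped, and the log2 fold change of 0.55 (limma adjusted p = 0.109, SE 0.25) was not called. Without sgScramble replicate 4 it was 0.73 with an adjusted p of 0.0467. *Slamf7* shares 9.24% of its exon bases with an antisense gene, *Gm37787*.

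Receptor-proximal signaling comprised 13 genes, of which 12 were tested and 11 rose (median log2 fold change 1.93). *Themis*, an adaptor needed for thymocyte selection, was at 14.9, 22.7, 8.22 and 9.27 in sgScramble tumors and at 76.3, 121 and 50.4 in sgKrt19 tumors (log2 fold change 2.52, limma adjusted p = 0.00139, SE 0.40). *Sh2d2a*, an adaptor that binds Lck, was at 85.5, 75.1, 48.4 and 67.7 in sgScramble tumors and at 282, 363 and 305 in sgKrt19 tumors (log2 fold change 2.20, SE 0.22, adjusted p = 0.000108). Neither gene had overlapping groups, and the relative spread was larger for *Themis*. The kinase *Lck* was 3.72-fold, its partner *Zap70* 3.91-fold and the adaptor *Lat* 4.23-fold higher, with adjusted p-values of 0.000278, 0.00021 and 0.000119. *Prkcq*, the protein kinase C theta isoform, was 4.26-fold higher, *Ubash3a*, a phosphatase family member that restrains receptor signals, 4.33-fold, and the adaptor *Skap1* 3.20-fold. *Prkcq* is also expressed in skeletal muscle. It was at 28.3 in sgScramble 3, where the muscle marker sum was 1955, and at 25.7 to 34.4 in the other controls, with sums of 59.3 to 89.0. The sgKrt19 sums were far higher, at 14380 to 23220, and the part of muscle in the difference of *Prkcq* was not tested.

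Smaller differences were found for *Lcp2* (1.67-fold, adjusted p = 0.00483), which is shared with myeloid cells, and for the Tec family kinase *Txk* (1.79-fold, adjusted p = 0.0191). The call on *Txk* was lost without sgScramble replicate 2, sgKrt19 replicate 5 or sgKrt19 replicate 6, with log2 fold changes of 0.77, 0.79 and 0.81. *Sla2*, an adaptor that lowers receptor levels, was at 2630, 1954, 2474 and 1748 in sgScramble tumors and at 4018, 2984 and 3257 in sgKrt19 tumors (log2 fold change 0.64, limma adjusted p = 0.014, SE 0.16; 0.52 and not called without sgKrt19 replicate 5). It shares 23.59% of its exon bases with *Rab5if*, a gene on the opposite strand, and stood at 82.3% to 87.8% of the value of *Rab5if* in every tumor. *Rab5if* rose by 0.58 on the log2 scale, and reads of these genes cannot be told apart here. *Fyb* (ADAP), an adaptor that joins the receptor to integrins, was at 1297, 1130, 1259 and 1105 in sgScramble tumors and at 1601, 1284 and 1284 in sgKrt19 tumors (log2 fold change 0.21, limma adjusted p = 0.199, SE 0.12). Its groups overlapped. It shares 4.29% of its exon bases with *Gm7666*, a pseudogene within its span on the same strand. *Fyb* stood at 60.3% to 68.8% of the value of *Gm7666* in sgScramble tumors and at 71.9% to 74.3% in sgKrt19 tumors. The part of shared reads in the value of *Fyb* was not tested. Without *Sla2*, which was called, and *Fyb*, which was not, 34 of 37 tested genes were called higher, beside 17.9% of all tested genes.

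Cytokine receptors comprised 7 genes, of which 5 rose (median log2 fold change 1.04). *Il2rb*, the beta chain used by interleukin-2 and interleukin-15, was at 385, 394, 302 and 464 in sgScramble tumors and at 1232, 1522 and 1194 in sgKrt19 tumors (log2 fold change 1.77, limma adjusted p = 7.09e-05, SE 0.16). *Il18rap*, the accessory chain of the interleukin-18 receptor, was at 1375, 1415, 970 and 1122 in sgScramble tumors and at 3195, 3959 and 4454 in sgKrt19 tumors (log2 fold change 1.67, SE 0.16, adjusted p = 9.99e-05). For *Il18rap* the highest tumor was sgKrt19 8, the tumor that was lowest for 28 of the 39 genes. *Il18r1*, the binding chain of the same receptor, was also highest in sgKrt19 8 (1536, against 1033 and 1338) and was 2.06-fold higher between the groups. The common gamma chain *Il2rg* was 2.38-fold higher, with 30.5% of its exon bases shared with *Gm20489* on the same strand. *Gm20489* was 2.26-fold higher, and *Il2rg* stood at 224% to 273% of its value in every tumor. The part of shared reads in the difference of *Il2rg* was not tested.

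The other receptor genes differed less. *Il12rb1*, the shared chain of the interleukin-12 and interleukin-23 receptors, was 1.64-fold higher (limma adjusted p = 0.028). Its call was lost when any library except sgScramble replicate 1 was left out, with log2 fold changes of 0.57 to 0.75. *Il7r*, the interleukin-7 receptor of resting and memory T cells, was at 104, 101, 120 and 133 in sgScramble tumors and at 188, 171 and 124 in sgKrt19 tumors (log2 fold change 0.48, SE 0.20, adjusted p = 0.0853). sgKrt19 8 lay below the highest control, and without sgKrt19 replicate 8 the log2 fold change was 0.66 (adjusted p = 0.0392). *Il12rb2*, the chain that completes the interleukin-12 receptor, was at 60.4, 105, 68.5 and 91.8 in sgScramble tumors and at 74.0, 89.0 and 57.8 in sgKrt19 tumors. Its groups overlapped (log2 fold change −0.13, 95% interval −0.69 to 0.43, adjusted p = 0.71). It shares 40.04% of its exon bases with *Serbp1* on the opposite strand and stood at 0.354% to 0.699% of the value of *Serbp1*. The part of *Serbp1* reads in the value of *Il12rb2* was not tested.

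Of the 5 transcription factors 5 were called higher, with a median log2 fold change of 0.63. *Tbx21* (T-bet), which drives interferon-gamma production, differed most, at 33.4, 29.6, 14.6 and 40.8 in sgScramble tumors and at 102, 119 and 82.96 in sgKrt19 tumors (log2 fold change 1.81, limma adjusted p = 0.00289, SE 0.33). Its relative *Eomes* was at 69.7, 55.3, 61.2 and 67.7 in sgScramble tumors and at 106, 146 and 104 in sgKrt19 tumors (log2 fold change 0.88, SE 0.20, adjusted p = 0.0088). *Gata3*, which also acts in type 2 and innate lymphocytes, was at 177, 207, 152 and 168 in sgScramble tumors and at 251, 254 and 289 in sgKrt19 tumors (log2 fold change 0.59, SE 0.16, adjusted p = 0.0168). These 3 genes had groups that did not overlap, and so had *Bcl11b*, which secures T cell commitment, at 343, 376, 349 and 407 in sgScramble tumors and 425, 527 and 524 in sgKrt19 tumors. The difference in *Bcl11b* was the smallest of those called (log2 fold change 0.41, limma adjusted p = 0.0386, SE 0.13). *Runx3*, a factor of CD8 T cells and NK cells, had a log2 fold change of 0.63 (adjusted p = 0.0338). Not all of these calls held. *Bcl11b* was not called when sgScramble replicate 1, 2 or 3 or sgKrt19 replicate 6 or 8 was left out (0.36 to 0.42), *Runx3* without sgScramble replicate 1 or 3 or sgKrt19 replicate 5 or 6 (0.46 to 0.70), and *Gata3* without sgKrt19 replicate 8 (0.53). With library size as the only scaling, none of these 3 was called (0.20, 0.42 and 0.38).

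All 5 effector genes rose, with a median log2 fold change of 1.93. *Ifng*, which encodes interferon-gamma, was at 40.9, 24.7, 22.8 and 29.7 in sgScramble tumors and at 187, 147 and 200 in sgKrt19 tumors, the highest fold of the 39 genes at 5.96 (log2 fold change 2.58, limma adjusted p = 9.67e-05, SE 0.25). It was highest in sgKrt19 8. The gene *Gm49751* covers 25.95% of its exon bases on the same strand. *Gm49751* also rose, from 7.93 ± 2.75 (SD, n = 4) in sgScramble tumors to 39.1 ± 3.61 (SD, n = 3) in sgKrt19 tumors. The part of shared reads in the difference of *Ifng* was not tested. *Fasl*, the ligand that triggers cell death through Fas, was at 30.7, 35.6, 11.9 and 20.4 in sgScramble tumors and at 114, 131 and 60.9 in sgKrt19 tumors (log2 fold change 2.05, SE 0.40, adjusted p = 0.00386). *Xcl1*, a chemokine for Xcr1-positive dendritic cells, was 3.81-fold higher (adjusted p = 0.00147), and an antisense gene, *Gm20743*, covers 18.74% of its exon bases. *Gm20743* was at 6.98 ± 2.99 (SD, n = 4) in sgScramble tumors and at 23.1 ± 7.07 (SD, n = 3) in sgKrt19 tumors. The part of shared reads in the difference of *Xcl1* was not tested.

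The effector genes with smaller differences belong to the lysosome and granule pathway. *Cst7*, the protease inhibitor cystatin F, was at 59.5, 69.2, 40.2 and 58.4 in sgScramble tumors and at 206, 183 and 120 in sgKrt19 tumors (log2 fold change 1.55, limma adjusted p = 0.00158, SE 0.25). *Ctsw*, a cathepsin of cytotoxic lymphocytes, was at 375, 319, 311 and 339 in sgScramble tumors and at 682, 602 and 518 in sgKrt19 tumors (log2 fold change 0.83, SE 0.14, adjusted p = 0.00173). Both genes had separate groups.

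**Figure D3:**
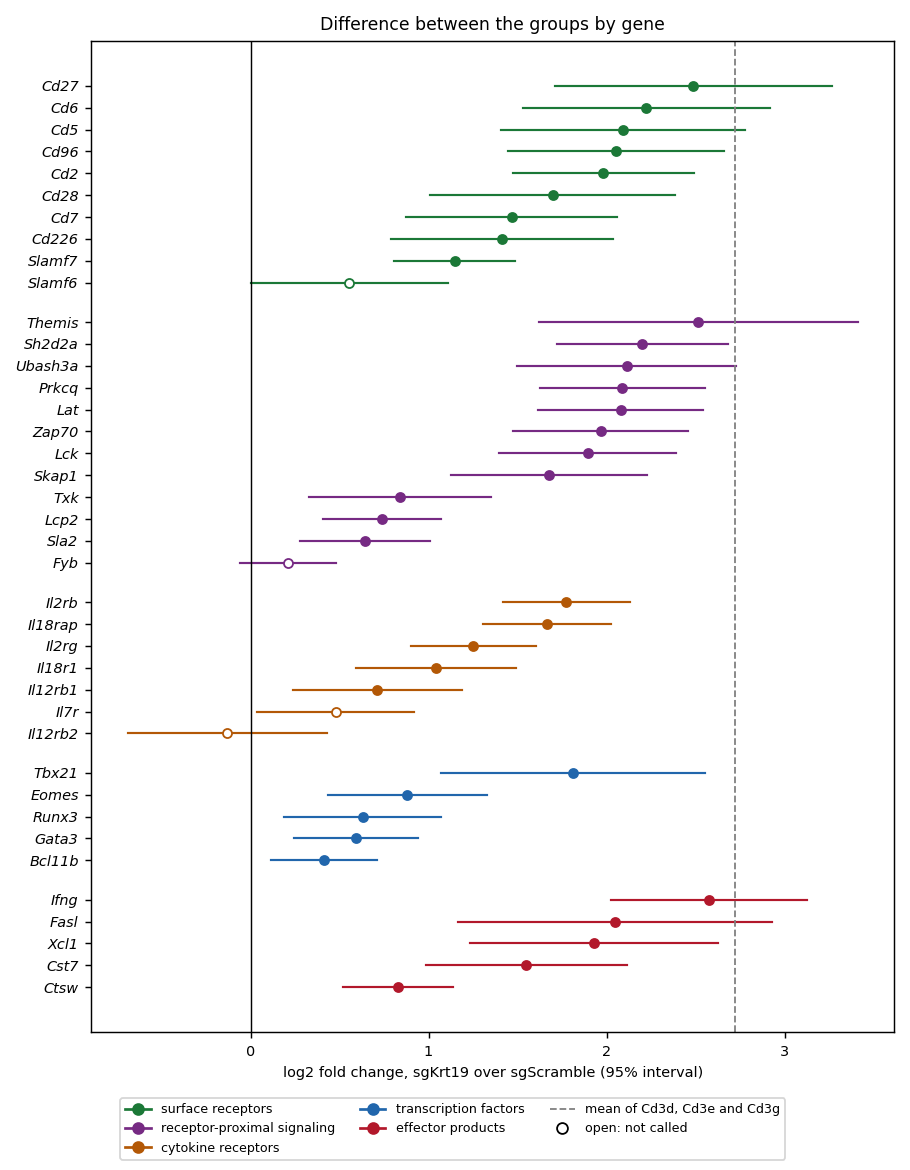
Log2 fold change of sgKrt19 over sgScramble tumors with its 95% interval for each of the 39 tested genes, by role, with filled points for genes called at an adjusted p under 0.05 and a dashed line at the mean of *Cd3d*, *Cd3e* and *Cd3g*. Values run from −0.13 for *Il12rb2* to 2.58 for *Ifng*, and each point lies to the left of the CD3 line.

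Levels were compared between genes per kilobase of exon. In sgKrt19 tumors the highest levels per kilobase, after *Sla2*, were those of *Il18rap* (573), *Xcl1* (512), *Il2rg* (499) and *Ctsw* (318). *Lck* stood at 250, *Ifng* at 137, *Zap70* at 79.0 and *Cd27* at 47.1. *Themis* (7.07), *Txk* (4.84) and *Trat1* (1.22) were at the bottom of the order. In sgScramble tumors the levels of *Il18rap*, *Lck*, *Ifng* and *Cd27* were 181, 67.2, 22.8 and 8.11 per kilobase.

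To set the 39 genes against the amount of T cell transcript, the mean log2 level of *Cd3d*, *Cd3e* and *Cd3g* of each tumor was subtracted from every gene and the groups were compared again. The CD3 mean was 6.78, 6.67, 5.63 and 5.86 in sgScramble tumors and 9.31, 9.27 and 8.29 in sgKrt19 tumors, and its spread enters every gene in common. The fit pools variance over all genes and so treats this shared spread as well known, although it rests on 7 tumors. Intervals on this scale are therefore too narrow and adjusted p-values too small, and calls near the threshold are uncertain. The subtraction moves every log2 fold change by the same amount, so the order of the genes is that of the level fit. Each of the 39 genes already had a lower fold change than the CD3 mean there. That none could be called higher on this scale was therefore fixed in advance and is no further result. On this scale limma called 0 of the 39 genes higher, also at an unadjusted p under 0.05, and 20 lower, and 19 were not called. Across all tested genes 97.3% were called, 0.497% higher and 96.8% lower, with a median log2 difference of −2.72 against −1.06 for the 39 genes. *Ifng* (−0.15, limma adjusted p = 0.802), *Themis* (−0.21, adjusted p = 0.745) and *Cd27* (−0.23, adjusted p = 0.704) lay nearest to 0. Their 95% intervals ran from −1.29 to 0.9954, from −1.45 to 1.03 and from −1.43 to 0.96, so equality with the CD3 genes was not shown. Called lower per CD3 transcript were 4 of 5 transcription factors and 6 of 7 cytokine receptors, 4 of 10 surface receptors, 4 of 12 signaling genes and 2 of 5 effector genes, and whether these shares differ between the roles was not tested.

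Not every call on that scale held when a tumor was left out. *Cd7* and *Il18rap* lost theirs without sgScramble replicate 3 or 4 or sgKrt19 replicate 5 or 6 (−1.20 to −0.98 and −0.96 to −0.75), and so did *Cd226* (−1.36 to −1.18). *Cst7* also lost its call without sgScramble replicate 2, with values of −1.22 to −1.02. Calls were gained by *Il2rb* without sgScramble replicate 1 (−1.13) or sgKrt19 replicate 8 (−1.22), and by *Xcl1* without sgScramble replicate 2 (−1.21).

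A second comparison used the mean log2 level of 10 general leukocyte genes, led by *Ptprc* (CD45), in the same way. The spread of this mean also enters every gene in common, so the same limit on intervals and adjusted p-values applies. Again every log2 fold change is moved by the same amount, and the order of the genes is that of the level fit. Here 20 of the 39 genes were called higher, 3 lower and 16 were not called. Of all tested genes 78.9% were called, 2.78% higher and 76.1% lower, and the median log2 difference was −0.98 against 0.68 for the 39 genes. *Ifng* (1.59), *Themis* (1.53), *Cd27* (1.499), *Cd6* (1.23) and *Sh2d2a* (1.21) had the largest differences between the groups on this scale. The 3 genes called lower were *Il12rb2* (−1.12), *Fyb* (−0.78) and *Bcl11b* (−0.58). By role, 8 of 12 signaling genes, 6 of 10 surface receptors and 3 of 5 effector genes were called higher, against 2 of 7 cytokine receptors and 1 of 5 transcription factors, *Tbx21* (0.82). Whether these shares differ between the roles was not tested.

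Calls near the threshold on the leukocyte scale changed with single tumors. *Cd28* lost its call without sgScramble replicate 1, 2 or 3 or sgKrt19 replicate 5 or 6 (0.58 to 0.74), *Skap1* without sgScramble replicate 3 or 4 or sgKrt19 replicate 5 or 6 (0.57 to 0.72) and *Tbx21* without sgScramble replicate 3 or sgKrt19 replicate 5 or 6 (0.58 to 0.85). *Il18rap* lost its call without sgKrt19 replicate 8 (0.44). *Bcl11b* was no longer called lower without sgScramble replicate 2 or 3 or sgKrt19 replicate 5 or 6 (−0.55 to −0.44). A call was gained by *Cst7* without sgScramble replicate 2 (0.73) and by *Sla2*, as lower, without sgScramble replicate 4 (−0.52).

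**Figure D4:**
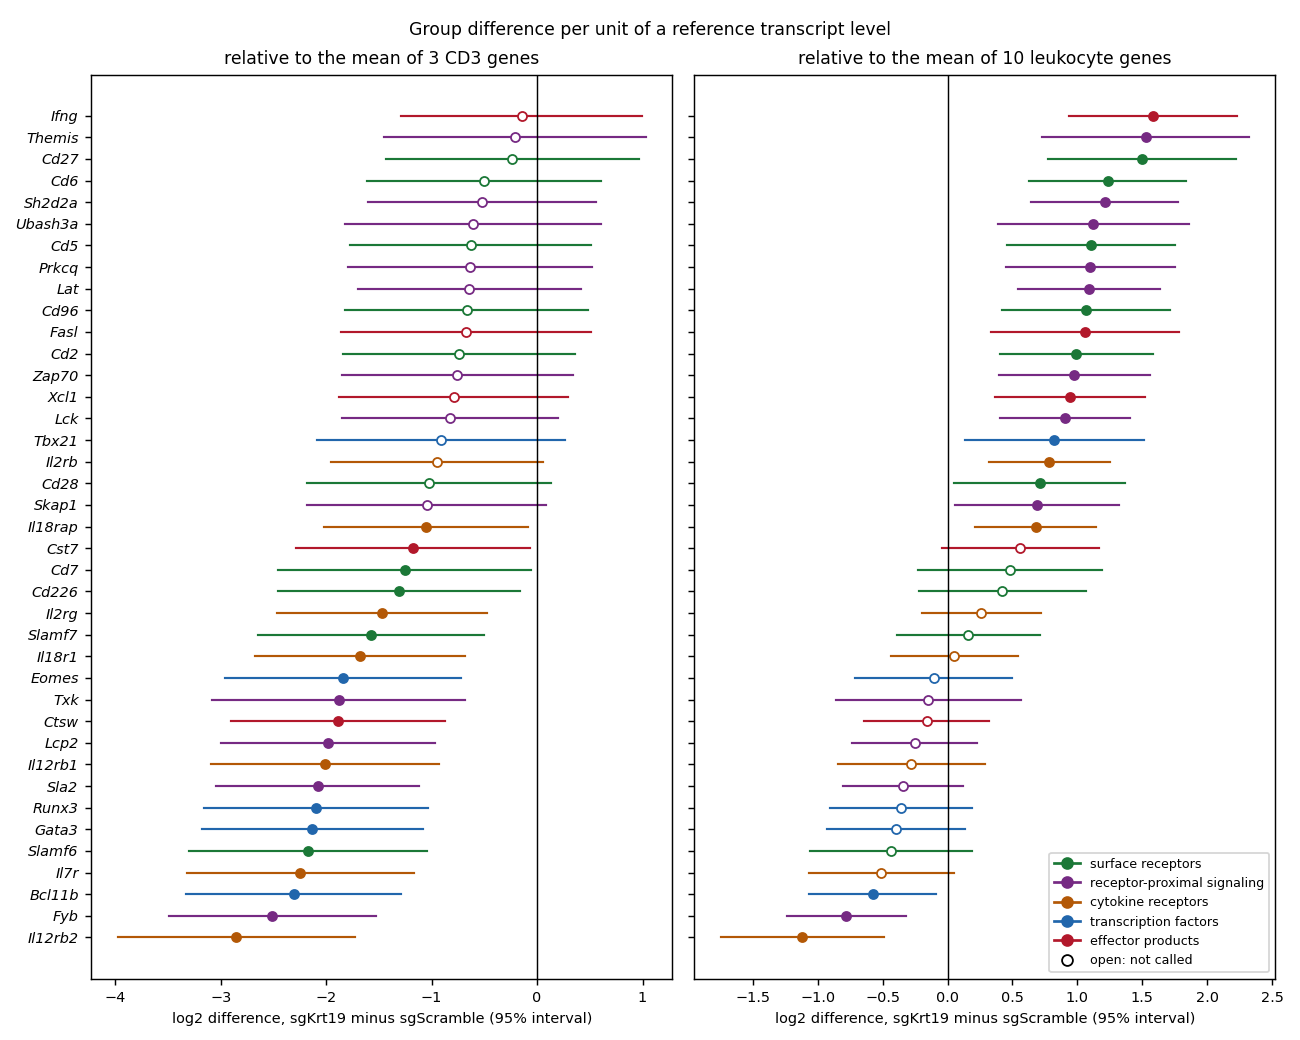
Log2 difference between sgKrt19 and sgScramble tumors with its 95% interval after subtraction of the CD3 mean (left) or the general leukocyte mean (right) of each tumor, genes in the order of their fold change, filled where called. On the left no gene is called higher and 20 are called lower, and on the right 20 are called higher and 3 lower. The intervals are too narrow, because the spread of each reference mean is shared by all genes.

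Other genes of the receptor pathway were then examined. Of 38 such T cell receptor signaling genes 16 rose and 2 fell, with a median log2 fold change of 0.26, beside 17.9% higher and 16.0% lower among all tested genes. Whether they differed from the 39 genes as a group was not tested. *Sit1*, a lymphocyte adaptor, was at 5.57, 7.90, 1.83 and 0.927 in sgScramble tumors and at 34.7, 25 and 19.95 in sgKrt19 tumors (log2 fold change 2.67, limma adjusted p = 0.00497, SE 0.54). It passed the filter only through the sgKrt19 libraries, where it was high, so its call is no independent support. Its values in sgScramble 3 and sgScramble 4 were under the floor of 3 reads. The costimulator *Icos* rose by 1.91 on the log2 scale. *Plcg1*, the phospholipase C gamma that acts below Lat, fell by 0.66 on the log2 scale, from 2540, 3620, 2955 and 3700 in sgScramble tumors to 2040, 2159 and 1826 in sgKrt19 tumors. *Itpkb*, a kinase of its product, fell by 0.56 on the log2 scale. The 2 genes called lower were 4 without sgScramble replicate 1 or 3, and 1 without sgScramble replicate 2 or sgKrt19 replicate 5. *Cd247*, the CD3 zeta chain, was singled out after its values were seen: at 211, 368, 193 and 351 in sgScramble tumors and 236, 341 and 195 in sgKrt19 tumors, it did not share the difference of the other CD3 chains (log2 fold change −0.10, limma adjusted p = 0.792, SE 0.27).

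Among 24 ligands and partners of the 40 genes, 19 were tested, of which 11 rose and 2 fell (median log2 fold change 0.74), beside 17.9% higher and 16.0% lower among all tested genes. *Sectm1b*, of the family that binds Cd7, was at 0, 1.98, 9.13 and 1.86 in sgScramble tumors and at 39.3, 45.0 and 36.8 in sgKrt19 tumors (limma adjusted p = 0.00205). This gene also passed the filter only through the sgKrt19 libraries, so its call is no independent support. Its values in sgScramble 1, sgScramble 2 and sgScramble 4 were under the floor of 3 reads. *Xcr1*, the Xcl1 receptor of a dendritic cell subset, rose from 29.7, 29.6, 18.3 and 18.6 to 61.3, 98.0 and 57.8 (log2 fold change 1.55, SE 0.30, adjusted p = 0.00362). *Il18bp*, the secreted decoy that binds interleukin-18, rose from 422, 400.2, 402 and 417 to 1059, 973 and 1028 (log2 fold change 1.31, SE 0.11, adjusted p = 4.56e-05). *Il4* fell by 1.17 on the log2 scale, from 40.9, 48.4, 62.1 and 43.6 to 31.2, 17.0 and 16.8 (limma adjusted p = 0.0128). *Alcam*, the ligand of Cd6, fell by 0.93 on the log2 scale, from 10870, 13040, 11030 and 12240 to 7471, 5839 and 5416 (limma adjusted p = 0.000849). *Cd70*, *Il12a*, *Il12b*, *Il21* and *Tslp* did not pass the filter on low values.

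Of 16 JAK-STAT and receptor partners 15 were tested, 6 rose and 2 fell (median log2 fold change 0.055), beside 17.9% and 16.0% of all tested genes, so the share that fell was near that of all genes. *Il2ra*, the alpha chain of the interleukin-2 receptor, rose by 1.04 on the log2 scale and *Il21r* by 0.96. *Stat5a* and *Stat5b*, which act below the common gamma chain, fell by 0.62 and 0.54 on the log2 scale (limma adjusted p = 0.00417 and 0.00393), and for both genes all sgKrt19 tumors lay below all sgScramble tumors.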

How the data were processed

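RNA of 7 tumors was sequenced as single 76-base reads. The labels name polyA RNA, whereas the methods of the study name a stranded total RNA kit. The authors deposited 1 table of 38026 genes whose values are a signal: counts of reads per gene divided by a size factor for each library. Whole reads were recovered for 100% of values (within 0.1 of a read) in each library. The submitters' processing notes name the build mm10, and the aligner, counter and annotation are not given in the sources used here, nor whether the counting used strand. Positions and exons came from GENCODE M21 (GRCm38), in which 97.74% of identifiers have the same version.

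The test covered genes that reached a value of 10 in 3 or more libraries. For all 21322 such genes, log2(value + 1) was modelled on group alone (R 4.3.3, limma 3.58.1, lmFit and eBayes with a trend), with Benjamini-Hochberg adjustment and a threshold of 0.05. A gene past it was called. Fold changes are on the log2(value + 1) scale, which understates changes of low genes. The same fit was repeated after subtracting the mean of 3 CD3 genes or of 10 general leukocyte genes. The mean over the members was described without a test. The level fits were tested on simulated data. The fit after subtraction was tested there only for its median estimate, with a reference that had no spread within groups.

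The 40 genes, the surrounding lists and the marker lists were chosen with earlier results of these data known. Values in every library are given for *Krt19*, for the 2 highest and 2 lowest members of each role by fold change, and for members not called. Of the surrounding lists, the 3 highest and each gene called lower are named, except items that are not reported here. Alternatives were edgeR 4.0.16 (quasi-likelihood) and DESeq2 1.42.0 on the recovered reads, other scalings, pseudocounts and filters, a test against a fold of 1.5, other reference genes, and leaving out each library. Replicates of a group differed by a chi-square of 18.8 to 81.0 per degree of freedom over genes, so none was counted as a repeat. The labels give no batch. Without molecular identifiers, the floor of 3 reads covers counting error only.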

Additional observations from a re-analysis of the deposited data

Results flagged for a closer look

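In each group of 4 sgScramble tumors, the gap between the highest or lowest value and its neighbour was compared with the range of the group. Of 41 sets of values searched, 2 (4.88%) had a tumor apart from the rest, and chance gives about 1 in 20. *Cd5* was at 44.6 in sgScramble 1, against 30.6 to 32.0 in the other controls (gap over range 0.904). *Cd226* was at 54.8 in sgScramble 1, against 34.7 to 38.0 in the other controls (gap over range 0.835). Both values lay below every sgKrt19 tumor.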

How the results depend on the processing

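No paired analysis was possible because the groups share no replicate numbers. Of 18 level settings, 23 of the 39 genes were called in each, and *Fyb* and *Il12rb2* in none. edgeR and DESeq2 each called 35 genes higher.

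A test against a fold of 1.5 called 23 of the 39 genes higher, 728 of all genes higher and 608 lower, 6 other receptor signaling genes higher and 0 lower, 2 ligands and partners higher and 0 lower, and 1 JAK-STAT partner higher and 0 lower. Scaling by library size only moved the median of all genes to −0.21, called 2187 genes higher and 5705 lower, with 8 other receptor signaling genes lower, gave a median log2 fold change of 1.45 for the 39 genes, and turned *Fyb* to −0.0065. Of the 39 genes 30 were then called higher, without *Txk*, *Il12rb1*, *Bcl11b*, *Gata3* and *Runx3*. A pseudocount of 10 gave a median of 1.47. A filter at 50 left 1 ligand or partner called lower. With *Ptprc* alone as the reference 16 of the 39 genes were called higher, without *Cd28*, *Skap1*, *Il18rap* and *Tbx21*, and 6 lower, and *Slamf7* (−0.043) and *Il18r1* (−0.15) changed sign. With *Cd3e* alone or T cell receptor constant genes as the reference 17 genes were called lower, without *Cd7*, *Il18rap* and *Cst7*. With the constant genes *Cd27* (0.24), *Themis* (0.27) and *Ifng* (0.33) changed sign, none of them called. The shares of all tested genes called with these alternative references are not given here, so these counts have no background. With the main references 2.78% of all tested genes were called higher and 76.1% lower on the leukocyte scale, and 96.8% lower on the CD3 scale.

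Leaving out 1 library gave 31 to 35 genes called higher of the 39, 2624 to 4102 of all genes higher and 2257 to 3637 lower (lowest without sgScramble replicate 2), and 1 to 4 other receptor signaling genes lower. Signs that changed, none of them called, were *Cd27* relative to CD3 (−0.40 to 0.0080, the latter without sgScramble replicate 4), *Ifng* relative to CD3 (−0.57 to 0.14, the latter without sgKrt19 replicate 6), *Il18r1* relative to leukocyte genes (−0.20 to 0.25; −0.13 without sgScramble replicate 4, −0.20 without sgKrt19 replicate 8), *Eomes* relative to leukocyte genes (−0.18 to 0.0020, the latter without sgKrt19 replicate 5) and *Il12rb2* (−0.28 to 0.031; 0.0009 without sgScramble replicate 2, 0.031 without sgKrt19 replicate 8). Where a value moved, the cause was not tested. *Trat1*, at 2 to 6 reads, was below the depth at which a difference could be tested.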
